A study of Mus musculus with 2 samples.

Results

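The growth factor axes that keep microglia alive and distinct were followed through 9 genes of the mouse brain. These genes were the receptor Csf1r, its ligands Csf1 and Il34, the ligands Tgfb1 and Tgfb2, the receptors Tgfbr1 and Tgfbr2, the signal carrier Smad3 and the transcription factor Sall1. They were taken by symbol from the 31053 genes measured, and all 9 symbols were found. The rule used no measured value, but earlier results of these data were known when the genes were chosen. Single-cell RNA sequencing with the 10x Genomics droplet system gave counts of unique molecular identifiers (UMIs), each of which stands for 1 captured RNA molecule.

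CSF1R is a receptor tyrosine kinase on macrophages that takes CSF1 and interleukin 34 as ligands, and microglia die when it is blocked. TGF-beta is secreted in a latent form, is released by integrins, and signals through TGFBR2 and TGFBR1 to SMAD2 and SMAD3 in the nucleus. In the brain this signal maintains the gene set of resting microglia, and SALL1 is a zinc finger repressor that sets microglia apart from other macrophages.

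The 2 samples were pools. The sorted sample held FACS-sorted brain cells of male mice aged 3 and 12 months, and the total sample held unsorted cells from brains of both sexes at 2 and 24 months of age. Both pools joined wild-type mice with STING-KO mice, which lack the protein through which cytosolic DNA is sensed, and 2 mice were grouped for each genotype and age. The labels give neither the sort gate nor the deleted part of the gene, and the age label of the total sample reads 240 where its title reads 24. Sort, age, sex and software version all differ between the samples, so these cannot be told apart.

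Each count table carried barcode suffixes 1 to 4, which by the convention of the counting software mark separate droplet libraries. The labels do not link suffixes with animals, ages or genotypes, so each table was treated as 1 sample and no p-value is given. The spread within a sample is shown by the range over those suffixes that hold at least 50 cells of the class. Tmem173, which encodes STING, was at 321, 2.87, 24.1 and 237 counts per 1000000 (CPM) in suffixes 1 to 4 of the sorted microglia-like cells. The total microglia-like cells held 2.59, 212, 296 and 5.40 CPM, and no suffix was given a genotype from these values. Barcode sequences were shared by more than 1 suffix in 85 cases in the sorted sample and 23 in the total sample, and 5 were shared between the samples.

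After removal of barcodes with fewer than 500 genes or more than 10% mitochondrial UMIs, 10076 of 13499 sorted barcodes and 9367 of 14674 total barcodes remained. They held 31220601 and 33498788 UMIs, with medians of 2293.5 and 1692 per cell. Clusters were named from marker genes with the 9 genes left out of both steps, so a name such as microglia-like rests on other genes. Levels are summed UMIs per 1000000 UMIs of a class and sample, given as CPM with exact 95% Poisson intervals in brackets that cover counting error only. Such levels are not scaled by gene length and are compared between cells, not between genes.

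Microglia-like cells numbered 4420 in the sorted sample and 577 in the total sample. All 10 of their marker genes were raised over the other cells in both samples, and these markers summed to 38044 CPM in the sorted sample and 24817 CPM in the total sample. They did not come from the same clusters. In the total sample 76.1% lay in a cluster of their own, while the sorted cells fell in other clusters, with 47.0% in the largest. Microglia-like cells of the total sample also held more of the neuron marker list, at 654 CPM (305 to 923 over suffixes) against 25.5 CPM (15.8 to 31.2). Sorted microglia-like cells held more of the choroid plexus epithelial list, at 8944 CPM (7277 to 11908) against 543 CPM (278 to 1143). The sum of immediate early genes, which respond to tissue handling, was 14987 CPM in the total sample and 11597 CPM in the sorted sample, and median depth was 4471 against 2029 UMIs. The part of these differences in the results below was not tested.

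**Figure D1:**
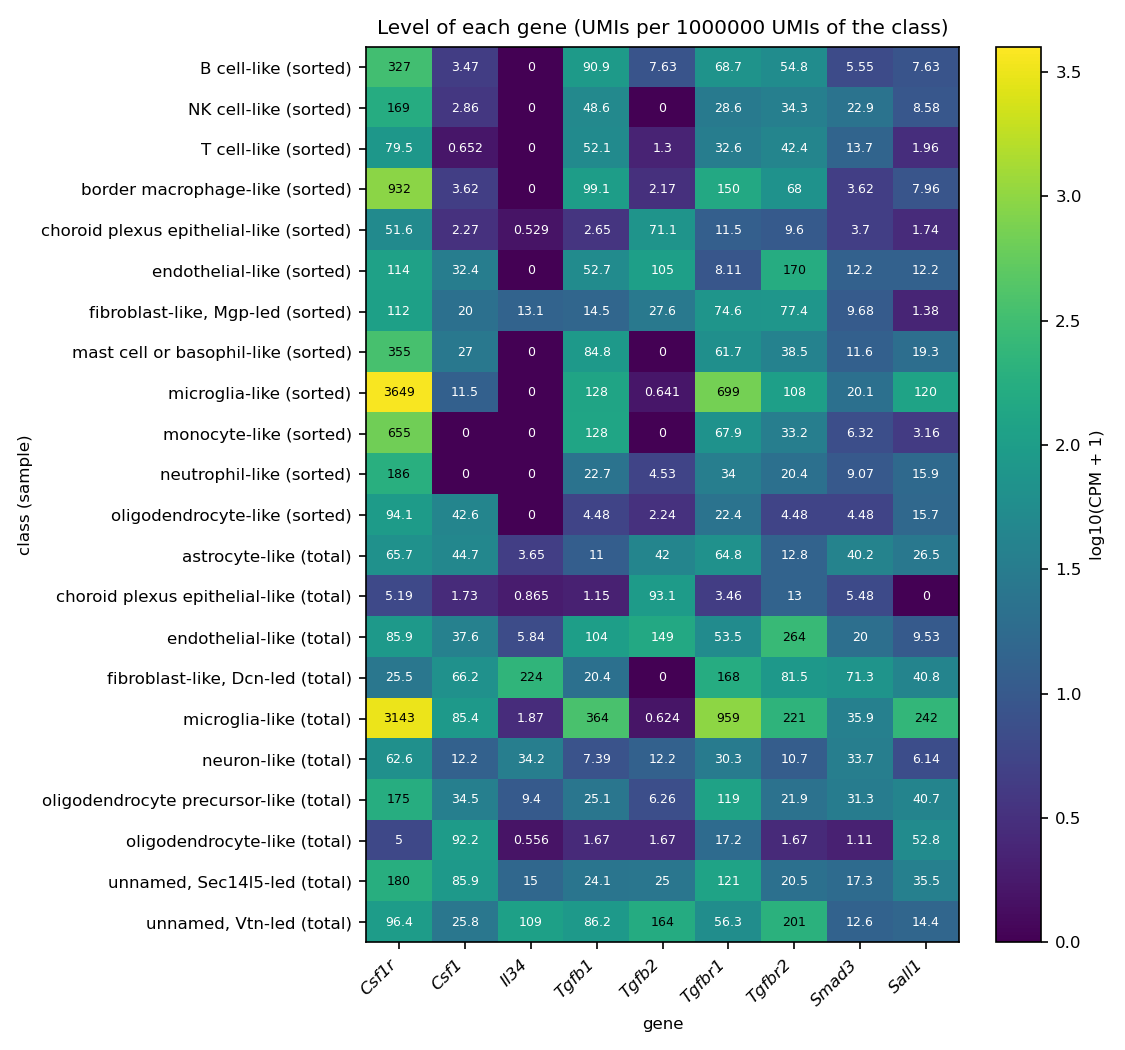
Heat map of the level of each gene (columns) in each cell class and sample (rows), with the CPM printed in each cell and the colour on a log10 scale of CPM plus 1. Csf1r, Tgfbr1, Tgfb1 and Sall1 have their highest values in microglia-like cells, at 3649, 959, 364 and 242 CPM, while Il34 and Tgfb2 lie near 0 there.

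The ligands of CSF1R, Csf1 and Il34, differed in the classes where their levels were highest, but several classes held both. In the total sample, Csf1, the ligand made by glia in the brain, had its highest levels in oligodendrocyte-like cells at 92.2 CPM [78.7–107], in an unnamed cluster at 85.9 CPM [74.1–99.1] and in microglia-like cells at 85.4 CPM [75.6–96.2]. That cluster of 711 cells carried markers of both astrocytes and oligodendrocytes. These 3 levels had overlapping intervals, so their order is not resolved. Fibroblast-like cells of the Dcn-led cluster had Csf1 at 66.2 CPM [35.3–113], astrocyte-like cells at 44.7 CPM [33.1–59.2], endothelial-like cells at 37.6 CPM [33.1–42.7] and neuron-like cells at 12.2 CPM. The endothelial-like cluster also had 100% of the erythroid markers, mostly haemoglobin genes, raised, and the part of this in its levels was not tested. Among sorted cells, oligodendrocyte-like cells had 42.6 CPM and microglia-like cells 11.5 CPM [9.47–13.9], while no Csf1 UMI was seen in 200 monocyte-like or 125 neutrophil-like cells. Those zeros allow up to 4.74 and 6.80 CPM, which is the level that 3 UMIs would give, the limit used here for every count of 0.

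Suffixes of the total sample were not alike in Csf1. Endothelial-like cells held Csf1 at 47.5, 70.8, 32.2 and 33.3 CPM in suffixes 1 to 4, and neuron-like cells held it at 12.8, 19.8, 10.6 and 11.4 CPM. Suffix 2 was the highest in both. The unnamed glial cluster showed no such peak, with Csf1 at 90.7, 72.2, 97.6 and 78.0 CPM. Of all Csf1 UMIs of the total sample, microglia-like cells gave 23.7%, endothelial-like cells 21.2%, the unnamed glial cluster 16.4%, oligodendrocyte-like cells 14.4% and neuron-like cells 11.9%. These shares follow the number and depth of the cells captured.

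Il34, the ligand made by neurons, was detected in neurons, fibroblasts and vessel wall cells. The 5655 neuron-like cells of the total sample had Il34 at 34.2 CPM [30.8–37.8] and gave 54.4% of its UMIs. Their suffixes were at 25.5, 25.7, 30.8 and 42.1 CPM, with suffix 4 above the others. Without suffix 4 the neuronal level was 29.1 CPM. Higher levels of Il34 in CPM were found in small groups, with 224 CPM [163–301] in Dcn-led fibroblast-like cells and 109 CPM [93.7–126] in an unnamed cluster of 218 cells led by the vessel wall genes Vtn, Acta2 and Pdgfrb. That cluster had 353 CPM in the sorted sample, from only 14 UMIs in 31 cells.

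Neuron-like clusters were not alike in Il34. Forebrain excitatory cells had 44.5 CPM [39.1–50.5] and striatal projection cells 41.0 CPM [28.6–57.1], which overlapped. Inhibitory cells had Il34 at 29.0 CPM [23.3–35.7], below the forebrain excitatory cells with no overlap of intervals. Cerebellar granule cells were at 8.91 CPM [4.27–16.4], and cerebellar inhibitory cells had no UMI of Il34 in 186 cells, which allows up to 13.2 CPM. Microglia-like cells had 0 Il34 UMIs in 4420 sorted cells, which allows up to 0.321 CPM, and 1.87 CPM from 6 UMIs in the total sample.

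**Figure D2:**
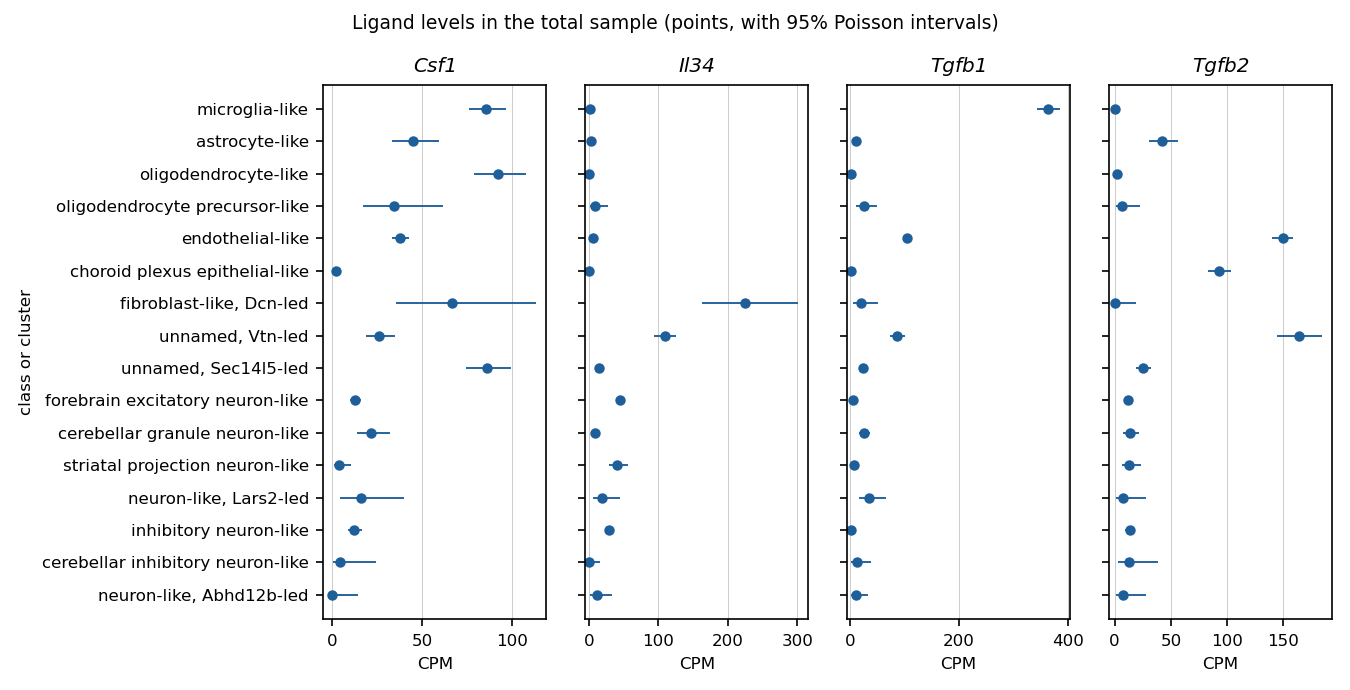
Levels of the ligands Csf1, Il34, Tgfb1 and Tgfb2 (CPM, horizontal axes) in classes and neuron-like clusters of the total sample (rows), with points for the summed level and bars for exact 95% Poisson intervals. Il34 is at 44.5 CPM in forebrain excitatory neuron-like cells and 1.87 CPM in microglia-like cells, and Csf1 is at 85.4 CPM in the latter.

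Tgfb1, the TGF-beta ligand that microglia depend on, was highest in microglia-like cells of the total sample among classes of at least 50 cells. Its level in microglia-like cells was 364 CPM [343–385] in the total sample and 128 CPM [120–135] in the sorted sample. Monocyte-like cells had Tgfb1 at 128 CPM [102–159], which overlapped the sorted microglia-like cells, endothelial-like cells of the total sample had 104 CPM, border macrophage-like cells 99.1 CPM [83.2–117] and B cell-like cells 90.9 CPM. Neuron-like cells were at 7.39 CPM, and choroid plexus epithelial-like cells at 1.15 CPM in the total sample and 2.65 CPM in the sorted sample. Of the Tgfb1 UMIs, microglia-like cells gave 68.1% among sorted and 50.8% among total cells, and endothelial-like cells gave 29.6% of the latter.

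Tgfb2, a second ligand of the same receptors, had other sources. Endothelial-like cells of the total sample had Tgfb2 at 149 CPM [140–159], the Vtn-led vessel wall cluster at 164 CPM [145–184], choroid plexus epithelial-like cells at 93.1 CPM [83.2–104] and astrocyte-like cells at 42.0 CPM. The first pair overlapped and lay above the choroid plexus cells. In choroid plexus epithelial-like cells, which secrete cerebrospinal fluid, Tgfb2 suffix levels were 79.8, 73.6, 68.0 and 55.2 CPM in the sorted sample and 85.4, 93.0, 90.2 and 105 CPM in the total sample. Every total suffix was above every sorted suffix, but the class totals of 93.1 and 71.1 CPM differed by less than 2-fold. Microglia-like cells had only 0.641 CPM of Tgfb2 in the sorted sample and 0.624 CPM in the total sample.

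The receptor Csf1r marked the macrophage lineage. It was at 3649 CPM [3610–3688] in sorted and 3143 CPM [3082–3205] in total microglia-like cells, followed by border macrophage-like cells with 932 CPM [882–985] and monocyte-like cells with 655 CPM [594–722]. No neighbours among these 4 levels overlapped. A UMI of Csf1r was found in 98.9% of sorted microglia-like cells at a median of 2029 UMIs, and in 12.0% of sorted choroid plexus epithelial-like cells at a median of 4189 UMIs. With every cell thinned to 1000 UMIs, these shares were 96.0% and 4.14%, against 55.4% in border macrophage-like, 47.7% in monocyte-like and 13.4% in B cell-like cells. Thinning left out 247 sorted microglia-like cells that were shallower.

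Low Csf1r levels in several other classes came with microglial markers in the same cells. For every 100 UMIs of the microglial marker list, Csf1r had 9.59 UMIs in sorted microglia-like cells and 12.7 in total ones. The same ratio was 8.83 in B cell-like, 10.0 in T cell-like, 10.5 in NK cell-like, 11.1 in neutrophil-like and 13.8 in neuron-like cells, near the microglial values. It was higher in border macrophage-like cells, at 20.9, in monocyte-like cells, at 38.4, and in the unnamed glial cluster, at 15.4 [13.8–17.1]. Lower ratios were found in total endothelial-like cells, at 3.73 [3.43–4.06], in the Vtn-led cluster, at 4.19, and in astrocyte-like cells, at 6.68. Mgp-led and Dcn-led fibroblast-like cells were also lower, at 5.24 and 1.22. A low ratio can come from more marker RNA as well as from less Csf1r. Whether these classes express genes of the marker list themselves was not tested. Their low ratios thus do not show whether they express Csf1r. The Csf1r levels of B cell-like cells (327 CPM), neuron-like cells (62.6 CPM) and T cell-like cells (79.5 CPM) came with microglial marker RNA in a like proportion. Whether those cells express Csf1r was not tested.

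Tgfbr1, the type I receptor kinase that phosphorylates SMADs, was far higher in microglia-like cells than elsewhere. Its level was 959 CPM [926–994] in total and 699 CPM [682–716] in sorted microglia-like cells, and the next classes were Dcn-led fibroblast-like cells at 168 CPM and border macrophage-like cells at 150 CPM [130–172]. After thinning to 1000 UMIs, 56.9% of total and 47.3% of sorted microglia-like cells held a Tgfbr1 UMI. Microglia-like cells gave 89.7% of the sorted and 70.2% of the total Tgfbr1 UMIs.

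Tgfbr2, the type II receptor that binds the ligand first, was shared with the vessels. Endothelial-like cells of the total sample had 264 CPM [252–277], with suffix levels of 277, 240 and 268 CPM in suffixes 1 to 3 and 262 CPM in suffix 4. Microglia-like cells followed with 221 CPM [205–238] in the total sample, and the Vtn-led vessel wall cluster with 201 CPM [180–224], which overlapped them. Endothelial-like cells gave 54.2% of the Tgfbr2 UMIs of the total sample and microglia-like cells 22.3%. In the sorted sample, which held few endothelial-like cells, microglia-like cells gave 63.2% of the Tgfbr2 UMIs and endothelial-like cells 2.62%.

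Smad3, which carries the TGF-beta signal to the nucleus, was not particular in level to microglia. Its intervals overlapped between total microglia-like cells at 35.9 CPM [29.6–43.0], neuron-like cells at 33.7 CPM [30.4–37.3] and astrocyte-like cells at 40.2 CPM. Within neurons, Smad3 was at 50.2 CPM in forebrain excitatory and 48.1 CPM in striatal projection cells, against 15.1 CPM in granule and 10.3 CPM in inhibitory cells. Border macrophage-like cells had 3.62 CPM of Smad3, from 5 UMIs, and oligodendrocyte-like cells of the total sample 1.11 CPM, from 2 UMIs. Neuron-like cells gave 47.4% of the Smad3 UMIs of the total sample.

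Sall1, the microglial identity factor, was at 242 CPM [225–259] in total and 119.7 CPM [113–127] in sorted microglia-like cells. These gave 65.2% and 93.0% of its UMIs. Border macrophage-like cells had 7.96 CPM, and choroid plexus epithelial-like cells 1.74 CPM in the sorted sample and 0 in the total sample, which allows up to 0.865 CPM. Sall1 was also found outside microglia in classes that had more of it for their microglial marker RNA. The largest such ratio among classes of at least 50 cells was in oligodendrocyte-like cells of the total sample, with a level of 52.8 CPM [42.7–64.5]. There Sall1 had 33.1 UMIs for every 100 UMIs of the microglial marker list, against 0.97 in microglia-like cells, 3.38 in oligodendrocyte precursor-like cells, 3.04 in the unnamed glial cluster and 2.69 in astrocyte-like cells. The oligodendrocyte-like cells were deep, with a median of 13515 UMIs, and 48.7% held a Sall1 UMI, or 2.56% after thinning to 1000 UMIs. In the sorted sample the level was 15.7 CPM, from 7 UMIs.

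The promoters of Tgfbr1, Tgfbr2 and Sall1 are shown. These 3 genes were low and high in the same suffixes of total microglia-like cells, as given below. Smad3 and Tgfb1 were split in the same way, Tgfb1 only slightly, but their promoters are not shown. RefSeq entries on GRCm38.p6 were found for 7 of the 9 genes, each covering 250 bases before to 50 bases after a transcription start. The entry at the annotated gene start is shown, and Tgfbr1 has 1 and Sall1 has 2 further entries at other starts. The sequences read 5′ to 3′ on the gene's strand and lie at chr4:47352972-47353271 (plus strand) for Tgfbr1, chr9:116175314-116175613 (minus strand) for Tgfbr2 and chr8:89044113-89044412 (minus strand) for Sall1. Capitals mark the SMAD-binding box CAGAC or its reverse complement GTCTG, and the PU.1 core GAGGAA or its reverse complement TTCCTC, which share no overlap with each other here.
Tgfbr1: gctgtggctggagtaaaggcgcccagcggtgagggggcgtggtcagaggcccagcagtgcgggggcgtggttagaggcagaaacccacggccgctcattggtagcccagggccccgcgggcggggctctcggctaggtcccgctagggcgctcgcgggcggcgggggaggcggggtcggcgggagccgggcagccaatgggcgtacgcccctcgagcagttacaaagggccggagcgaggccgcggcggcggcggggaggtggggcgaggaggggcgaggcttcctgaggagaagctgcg
Tgfbr2: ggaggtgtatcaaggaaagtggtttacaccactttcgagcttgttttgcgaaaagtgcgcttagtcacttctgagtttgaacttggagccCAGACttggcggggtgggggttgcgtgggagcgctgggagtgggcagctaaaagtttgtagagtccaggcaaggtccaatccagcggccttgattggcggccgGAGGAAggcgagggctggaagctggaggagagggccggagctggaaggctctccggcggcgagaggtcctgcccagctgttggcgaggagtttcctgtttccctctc
Sall1: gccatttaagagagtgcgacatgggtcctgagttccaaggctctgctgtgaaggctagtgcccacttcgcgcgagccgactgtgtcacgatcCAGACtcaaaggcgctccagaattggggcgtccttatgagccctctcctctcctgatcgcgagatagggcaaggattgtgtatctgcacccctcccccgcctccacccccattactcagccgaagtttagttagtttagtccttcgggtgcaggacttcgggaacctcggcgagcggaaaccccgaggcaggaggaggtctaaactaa
The Tgfbr2 window held 1 SMAD box and 1 PU.1 core, the Sall1 window 1 SMAD box and no PU.1 core, and the Tgfbr1 window neither. The windows of Smad3 and Tgfb1 also held neither. The other Tgfbr1 entry held 1 SMAD box and 1 PU.1 core, and the other Sall1 entries held neither. Of 32851 promoters of the same length, 49.6% held the SMAD box and 28.3% the PU.1 core, so these matches are common and only describe the letters. In GENCODE M21 on GRCm38, none of the 9 genes overlaps another gene on its own strand. Tgfbr1 spans 47353222 to 47414931 on chromosome 4, Tgfbr2 116084293 to 116175360 on chromosome 9 and Sall1 89027235 to 89044162 on chromosome 8.

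Csf1, Tgfbr2 and Sall1 were higher in microglia-like cells of the total sample than in sorted ones, while Csf1r was not called. A gene was called different when its levels, with 1 CPM added, lay at least 2-fold apart, the suffix ranges did not overlap, and it had at least 10 UMIs over both samples. Of the 9 genes, 7 could be tested, and 3 were called higher in the total sample and 0 lower. Among all 12858 genes tested, 20.3% were called, with 17.6% higher and 2.68% lower. The 7 genes that passed the UMI minimum had a median log2 ratio of 1.01, beside 0.20 over all genes.

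Csf1 differed most among them. Its suffix levels were 11.1, 10.6, 16.7 and 11.0 CPM in sorted and 81.7, 221, 68.6 and 25.9 CPM in total microglia-like cells, a ratio of 7.40 [5.90–9.34]. Every total suffix was above every sorted one, with suffix 2 standing far above the rest, and without it the log2 ratio fell from 2.78 to 2.22. The highest and lowest total suffix differed 8.53-fold in Csf1, and 22 of 3159 genes of at least 50 CPM, Csf1 included, were spread at least as widely.

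Tgfbr2 and Sall1 were called close to the 2-fold limit. Tgfbr2 suffix levels were 111, 104, 112 and 106 CPM in the sorted sample and 158, 186, 236 and 279 CPM in the total sample, a ratio of 2.04 [1.85–2.25]. Sall1 was at 121, 134, 91.0 and 96.9 CPM against 167, 185, 279 and 299 CPM, a ratio of 2.02 [1.84–2.21]. Groups did not overlap for either gene. Leaving out total suffix 3, the log2 ratio of Tgfbr2 was 0.98 and that of Sall1 0.91, without total suffix 4 they were 0.86 and 0.86, and neither was called. Sall1 was also lost without sorted suffix 3 or 4, and Tgfbr2 without sorted suffix 2. Over 20 alternative settings the call was made in 19 for Csf1, 13 for Tgfbr2 and 9 for Sall1.

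The remaining genes were not called. Csf1r was at 3868, 3619, 3249 and 3355 CPM in the sorted suffixes and 1943, 2281, 3847 and 3920.1 CPM in the total ones, which overlapped, with a ratio of 0.861 [0.842–0.881]. Tgfbr1 was at 723, 762, 523 and 576 CPM against 672, 746, 1137 and 1140.4 CPM, and Smad3 at 19.5, 20.6, 22.3 and 18.0 CPM against 19.4, 31.1, 50.9 and 36.7 CPM. Tgfb1 differed by a ratio of 2.85 [2.63–3.09], but its sorted range reached into the total one. Scaling by trimmed means (TMM) lowered every log2 ratio by about the same amount and moved the median of all genes from 0.20 to -0.13, and Csf1 alone stayed called.

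**Figure D3:**
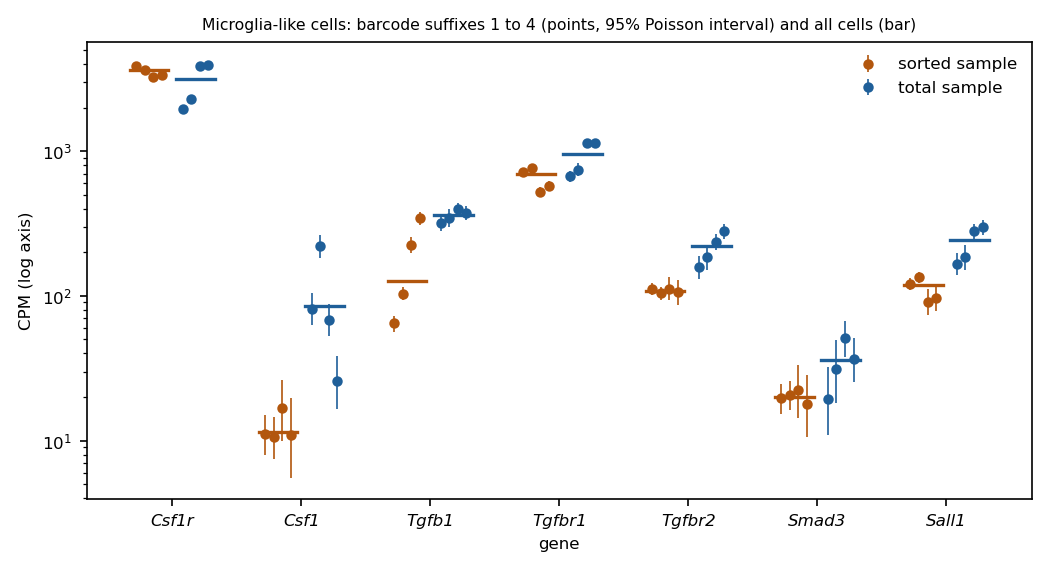
Levels of 7 of the genes (CPM, log axis) in microglia-like cells, with points for barcode suffixes 1 to 4 from left to right, vertical lines for exact 95% Poisson intervals and horizontal bars for all cells of the sorted or total sample. In the total sample Csf1r stands at 1943 and 2281 CPM in suffixes 1 and 2 and at 3847 and 3920.1 CPM in suffixes 3 and 4. Tgfbr1, Tgfbr2, Sall1, Smad3 and Tgfb1 are split the same way, and Csf1 the other way. For Tgfb1 the highest and lowest total suffix differ only 1.25-fold.

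In the total sample, Csf1r, Tgfbr1, Tgfbr2 and Sall1 were all lower in suffixes 1 and 2 than in suffixes 3 and 4. Smad3 and Tgfb1 were too, while Csf1 was higher in suffixes 1 and 2. The values stand above, and those of Tgfb1 below. For Tgfb1 the highest and lowest suffix differed only 1.25-fold, and 85.5% of 3159 genes of at least 50 CPM were spread at least as widely. That share was 14.3% for Csf1r, 33.3% for Tgfbr1, 28.4% for Tgfbr2 and 26.6% for Sall1. Smad3 and Csf1 rested on 115 and 274 UMIs over all suffixes, so their order in single suffixes is less sure. How many of all genes were split in this way was not counted, so the split is not shown to be particular to these genes. Genes of lipid handling and phagocytosis, named after their values were seen, were split the other way. Apoe, a lipid carrier, was at 19747, 17897, 715 and 562 CPM in the 4 suffixes, and Spp1, which encodes osteopontin, at 5408, 654, 9.35 and 5.40 CPM. Cst7, a protease inhibitor, was at 293, 159, 9.35 and 5.40 CPM, and the lectin gene Lgals3 at 533, 265, 6.24 and 1.08 CPM. Microglial marker sums were 18920 and 19855 CPM in suffixes 1 and 2 and 28110 and 29239.9 CPM in suffixes 3 and 4, and median depths were 3747, 3715, 5052 and 5107 UMIs. Tmem173 was not divided in this way, since it was low in suffixes 1 and 4.

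The division of Csf1r, Tgfbr1, Tgfbr2 and Sall1 was also seen inside the larger microglial subcluster of the total sample. That subcluster was led by Jund and Spp1, with 452 cells. It gave 9308 of the 10079 Csf1r UMIs and 2966 of the 3076 Tgfbr1 UMIs of total microglia-like cells. Its levels thus rest mostly on the same counts and are no separate check of the division. In that subcluster Csf1r was at 1985, 2321, 3913 and 4003 CPM, Tgfbr1 at 713, 844, 1202 and 1204 CPM, Tgfbr2 at 163, 187, 242 and 294 CPM and Sall1 at 183, 203, 289 and 314 CPM. Cells of the other total subcluster, led by AY036118 and Cst7, made up 20.5%, 25.2%, 17.9% and 20.2% of the microglia-like cells of the suffixes. The suffixes were not grouped or averaged, since no label sets them apart.

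Tgfb1 was widely spread over the suffixes of the sorted sample. In sorted microglia-like cells it was at 64.4, 104, 226 and 343 CPM in suffixes 1 to 4, a 5.33-fold range, beside a median range of 1.25-fold over 2723 genes of at least 50 CPM. Only 10 genes, Tgfb1 included, or 0.367%, were spread at least as widely, and Tmem173 was the widest of them. Border macrophage-like cells had Tgfb1 at 24.6, 39.7, 121 and 176 CPM, B cell-like cells at 33.4, 43.8, 92.4 and 182 CPM and T cell-like cells at 8.17, 4.83, 57.3 and 108 CPM. In all 4 classes suffixes 1 and 2 were below suffixes 3 and 4. Monocyte-like cells, with at least 50 cells in suffixes 1, 3 and 4, were at 46.0, 151 and 244 CPM. Total microglia-like cells had Tgfb1 at 319, 345, 399 and 375 CPM, near the highest sorted suffix. Median depths of sorted microglia-like cells were 2225, 2370, 1615 and 1235 UMIs, with the 2 shallower suffixes being those high in Tgfb1, and the part of depth or library in this was not tested.

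**Figure D4:**
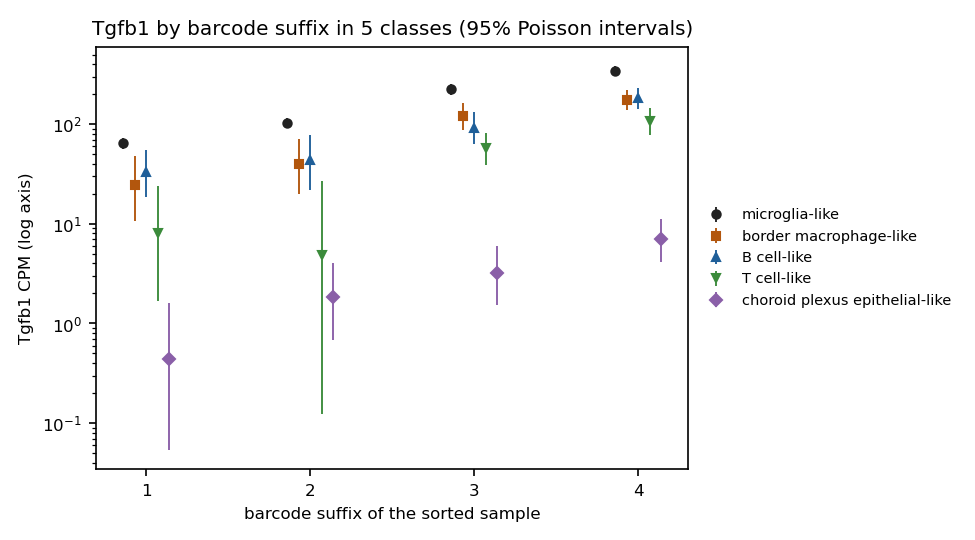
Tgfb1 level (CPM, log axis) by barcode suffix of the sorted sample in 5 cell classes, with vertical lines for exact 95% Poisson intervals. In microglia-like cells it is at 64.4 CPM in suffix 1 and 343 CPM in suffix 4, and border macrophage-like, B cell-like, T cell-like and choroid plexus epithelial-like cells are also lower in suffixes 1 and 2 than in suffixes 3 and 4.

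The pathway partners of CSF1R were compared between the same microglia-like cells. Of 10 signalling partners, 5 were called higher in the total sample and 0 lower, among them the adaptor Grb2 at 35.5 and 169.96 CPM. The adaptor Tyrobp, at 3646 CPM in sorted and 3269 CPM in total cells, and the phosphatase gene Inpp5d, at 284 and 450.01 CPM, were not called. Of 8 myeloid factors that act on or with CSF1R, 4 were called higher and 0 lower. These included Cebpa at 36.7 and 413 CPM, while Mef2c stood at 813 and 814 CPM and Irf8 at 622 and 465 CPM. Ptprz1, a receptor that binds interleukin 34, was called at 0.214 and 6.24 CPM, from 2 and 20 UMIs, and Sdc1, which also binds it, had 0 UMIs. The share of genes called higher over all genes was 17.6%.

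TGF-beta activation and storage genes gave 3 calls among 7 tested of 12, all higher in the total sample, and here too the share over all genes was 17.6%. They were the integrin genes Itgb5, at 244 and 1145 CPM, and Itgav, at 43.3 and 110.4 CPM, whose products release the ligand, and Ltbp4. Nrros, which tethers latent TGF-beta on microglia, was at 184 CPM in sorted and 94.8 CPM in total cells and was not called. Of 8 tested family receptors and co-receptors 5 were called higher and 0 lower, with Bmpr2 at 27.1 and 73.3 CPM, while Eng at 87.7 and 73.9 CPM was not called. Among 13 SMADs, inhibitors and co-factors 5 were called higher and 0 lower. The feedback inhibitors Smad7, at 52.5 and 398 CPM, Pmepa1, at 246 and 734 CPM, and Skil, at 150.4 and 349.9 CPM, were among these.

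Identity genes that depend on TGF-beta in microglia were mostly not called. Of 14 such genes, 0 were called higher and 3 lower in the total sample, beside 2.68% called lower over all genes, and the median log2 ratio was -0.44. The 3 were the purinergic receptor P2ry12, at 4450 and 2018 CPM, Tmem119, at 2916 and 1246 CPM, and Olfml3, at 2657 and 1317 CPM. C1qa, a complement gene, at 12091 and 9213 CPM, was not called. Some of these genes were among the markers that named the class. Of 8 general TGF-beta targets tested, 0 were called in either direction, with Junb at 3483 and 2511 CPM. Of 8 immediate early genes, Egr1 alone was called, at 347 and 1464 CPM.

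Border macrophages are the macrophages of the brain's coverings and vessels, and 414 cells of the sorted sample fell in a cluster named for them. All 8 of their markers were raised there, and 50% of the dendritic cell markers were too. Its leading genes joined the macrophage genes Pf4, Mrc1 and Ms4a7 with antigen presentation genes such as H2-Eb1 and Cd74 and the dendritic cell marker Cd209a, and whether it holds both kinds of cell was not tested. Of 7 genes tested, 5 were called lower there than in microglia-like cells and 0 higher, beside 21.4% of 12173 genes called, with 15.7% lower and 5.74% higher. The median log2 ratio of the 7 was -1.97, and that of all genes -0.38. Sall1 differed most, at 7.96 CPM against 119.7 CPM, a log2 ratio of -3.75. Tgfbr1 was at 181, 180 and 118 CPM in suffixes 1 to 3 and 132 CPM in suffix 4, which is 4.67-fold lower, and Csf1r at 1111, 1223, 815 and 705 CPM, which is 3.91-fold lower. Neither range met that of microglia-like cells.

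Smad3 was 5.56-fold lower [2.34–17.3], at 3.62 CPM. Csf1 was also called, at 3.62 CPM against 11.5 CPM, or 3.19-fold lower [1.33–10.0], but not with 10 CPM added. Each of these border macrophage-like levels rests on 5 UMIs, with a lowest suffix level of 0. Tgfbr2, at 68.0 CPM, was below every microglial suffix but within 2-fold, and Tgfb1 overlapped. All 14 TGF-beta-dependent microglial identity genes were called lower in border macrophage-like cells, with a median log2 ratio of -3.11, although part of them named the classes. Of 7 general TGF-beta targets, 4 were called higher and 1 lower. Tgfbi, a matrix protein induced by TGF-beta, was at 347 CPM there and 38.8 CPM in microglia-like cells. The inhibitor Smad7 was lower, at 13.7 against 52.5 CPM. The border macrophage-like cells also held dendritic cell markers at 681 CPM with none of 6 at 0 (2.99 CPM in microglia-like cells) and monocyte markers at 906 CPM with 1 of 7 at 0 (20.4 CPM). They held B cell markers at 2389.9 CPM (379 CPM in microglia-like cells) and haemoglobin genes at 19996 CPM (910.3 CPM). B cell markers reached 8032 CPM in suffix 3, and haemoglobin genes lay between 2478 and 35718 CPM over suffixes, and the part of these in the result was not tested.

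Choroid plexus epithelial-like cells were the other large class found in both samples. Csf1r, Tgfbr1 and Sall1 were called lower in the total sample, which is 3 of 9 genes tested, beside 21.8% of all genes called and 2.46% called lower. Csf1r was at 51.6 CPM in the sorted and 5.19 CPM in the total sample, and Tgfbr1 at 11.5 and 3.46 CPM. Of 14 microglial identity genes, 11 were called lower in the same cells. Csf1r stood at 7.52 and 3.45 UMIs for every 100 microglial marker UMIs there. The class lay mostly in different clusters in the 2 samples.

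Subclusters of microglia-like cells were formed without the 9 genes in the choice of variable genes, and are described by at least 2-fold differences with no suffix rule. The minimum of 10 UMIs over both groups lets in genes with few or no UMIs in a small subcluster. Such genes can pass as lower by counting error. The shares of all genes given for small subclusters are thus not a like measure for genes with many UMIs. In the sorted sample, 199 cells led by Lgals3 and Mmp12 stood apart, with 93, 87, 9 and 10 cells in suffixes 1 to 4. Tgfbr1 was at 190.2 CPM in them and 717 CPM in the other sorted microglia-like cells, or 3.77-fold lower [2.94–4.91], and was at 185 and 175 CPM in suffixes 1 and 2. Tgfbr2 was at 24.2 against 111 CPM, and Tgfb1 at 51.3 CPM, from 17 UMIs, against 130 CPM. In suffixes 1 and 2, which held most of the Lgals3-led cells, their Tgfb1 lay between 6.61 and 27.9 CPM. In the other cells it ranged from 66.9 to 343 CPM over suffixes 1 to 4, and the part of suffix in this difference was not tested. Smad3 also passed 2-fold, at 9.06 against 20.5 CPM, but from 3 UMIs.

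Csf1r was less different in the Lgals3-led cells, at 2771 against 3681 CPM, and Sall1 stood at 63.4 against 122 CPM, 1.92-fold lower. Thus 4 of 7 genes were at least 2-fold lower and 0 higher. Of all genes, 41.8% differed by at least 2-fold, with 38.2% lower and 3.57% higher, and the median log2 ratio of all genes was -0.60. All 8 immediate early genes were at least 2-fold lower. Thinned to 1000 UMIs, 14.6% of these cells held a Tgfbr1 UMI, against 46.8% and 50.8% in the other 2 large subclusters. Their microglial markers summed to 25657 CPM, against 35522 and 41712 CPM, while border macrophage markers were at 81.5 CPM and dendritic cell markers at 0. The median depth was 1364 UMIs, and the median mitochondrial share was 2.46%, against 1.06% and 1.07% in the 2 large subclusters.

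**Figure D5:**
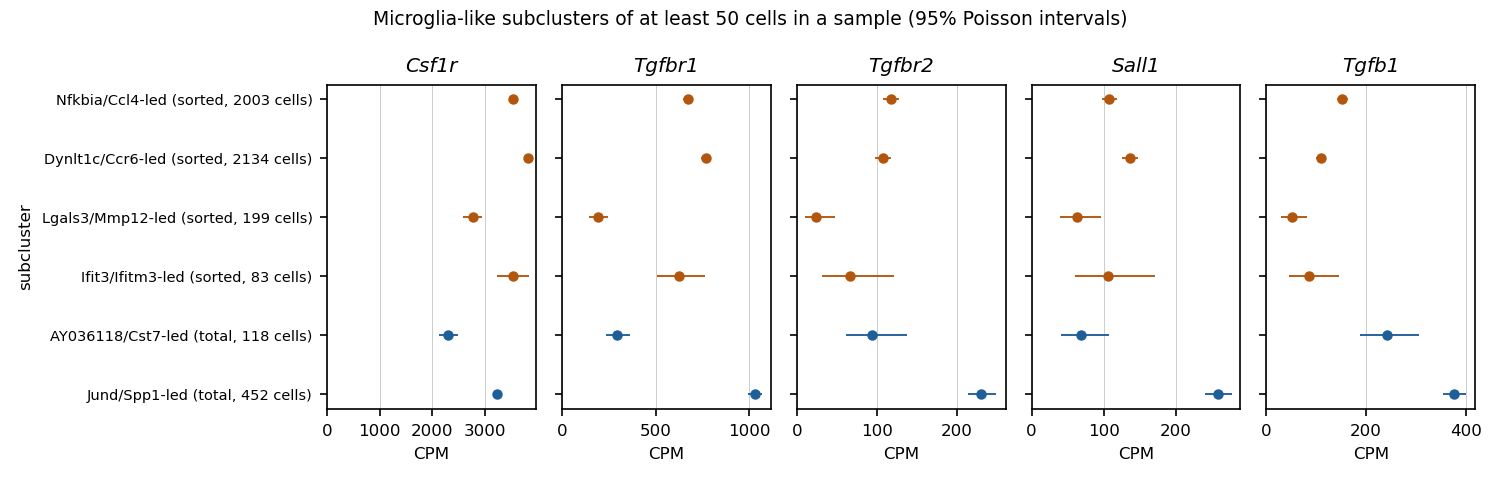
Levels of 5 of the genes (CPM, horizontal axes) in subclusters of microglia-like cells (rows, named by leading genes, sorted sample in orange and total sample in blue), with bars for exact 95% Poisson intervals. Tgfbr1 is at 190.2 CPM in the Lgals3-led sorted cells and 293 CPM in the AY036118-led total cells, below the other subclusters of the same samples.

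Other sorted subclusters differed little in these genes. The 2003 cells led by Nfkbia and Ccl4 had Csf1 at 16.0 CPM, against 7.52 CPM in the others, which with 1 CPM added was within 2-fold. None of the 7 genes passed, beside 2.28% of all genes, with 1.56% higher and 0.727% lower, while all 8 immediate early genes were at least 2-fold higher. The 83 cells led by the interferon gene Ifit3 had Csf1 at 39.5 against 11.1 CPM, from 6 UMIs. That was 1 of 7 genes higher and 0 lower, beside 9.6% of all genes higher and 28.6% lower.

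In the total sample, 118 cells led by AY036118 and Cst7 were set beside the 452 cells led by Jund and Spp1. Of 7 genes tested, 5 were at least 2-fold lower in the first and 0 higher, beside 46.9% of all genes past 2-fold, with 44.4% lower and 2.53% higher. The median log2 ratio of all genes was -0.84. Csf1r was at 2304 against 3234 CPM, Tgfbr1 at 293 against 1031 CPM, Tgfbr2 at 93.9 against 230.4 CPM and Sall1 at 68.6 against 258 CPM. Tgfb1 was at 242 against 377 CPM. The AY036118-led cells were shallow, with a median of 1876.5 against 6486.5 UMIs, and their median mitochondrial share was 5.28% against 3.197%. Their immediate early genes summed to 975 against 16351 CPM, and their microglial markers to 18849 against 25508 CPM. After thinning to 1000 UMIs, a Tgfbr1 UMI was found in 25.6% of the first and 65.4% of the second, and the part of depth, RNA quality and handling in these differences was not tested.

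Genes whose levels over classes were most like those of each member were found by Pearson correlation of log2 levels over 22 profiles, each a class in a sample, among 9918 genes. These are descriptions, since profiles of a sample share its library and free RNA. Csf1r was most like Cx3cr1, the microglial fractalkine receptor (r = 0.982), then Ly86 and Trem2. The closest to Tgfb1 was Map3k8 (r = 0.939), then Inpp5d and Fli1, and the closest to Tgfbr1 was Scamp2 (r = 0.916). Tgfbr2 was nearest to Parp14 (r = 0.910) and Sall1 to Agmo (r = 0.840). Among the ligands, Il34 was nearest to Rbms3 (r = 0.976) and Tgfb2 to Palmd (r = 0.896). Smad3 was nearest to Rreb1 (r = 0.817).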

How the data were processed

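The deposited matrices hold raw UMI counts per gene and cell barcode, made by the authors with Cell Ranger on mm10. The submitters' processing notes name version 3.0.2. Per the file headers the total sample used 3.1.0 instead. The labels give version 3 chemistry, and the protocol in the labels allows for an older version by run. No label says if depth was equalised between suffixes, and 0 other columns were present.

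Counts were summed per class and sample and divided by the class total. Cells were clustered jointly with scanpy 1.11.5 (2000 variable genes, 30 components, 15 neighbours, Leiden resolution 1). Naming a cluster needed 50% of a marker list, and no fewer than 3 genes, raised 2-fold with 10 CPM added. No other class could have 75% of its own list raised, except for the erythroid list, which is mostly haemoglobin genes. The endothelial-like cluster was named although 100% of the erythroid list was raised in it. The 75% limit was set after the data were seen and left 2 of 32 clusters unnamed. They were led by Vtn (31 sorted cells, 0.308%, and 218 total cells, 2.33%) and by Sec14l5 (2 sorted cells, 0.0198%, and 711 total cells, 7.59%). In all, 26 marker lists and 9 gene lists were used. Doublets were called in 85 sorted (0.844%) and 7 total cells (0.0747%, where the caller did not work) and were kept in the values given. Intervals are exact Poisson for levels and Clopper-Pearson for shares. The calling rule stands in the report and was tested on simulated data. The simulated suffixes of a sample differed by counting error only, so that test cannot show how the rule acts where suffixes differ by more. Of each gene list, the 3 genes with the highest level in microglia-like cells were named, except for some that are not reported here, and Cebpa, Ltbp4, Egr1, Tmem119, Olfml3 and the lipid-handling genes were named after their values were seen. Likeness was the Pearson correlation of log2(CPM + 1), among genes of at least 50 CPM in some profile. The 9 genes and all lists were chosen with earlier results of these data known.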

Additional observations from a re-analysis of the deposited data

How the results depend on the processing

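No paired analysis was possible because each group is 1 pooled sample. The count of 3 genes called in microglia-like cells became 1, Csf1 in each case, without total suffix 3 or total suffix 4, under TMM scaling and with 10 CPM added. Under the other settings it was 2 to 4. The count of 5 in border macrophage-like cells ranged from 4 to 5 and had no value at Leiden resolution 0.5 or with each sample clustered alone, where no such class was named.

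The log2 ratio of Csf1r between samples, -0.22, kept its direction throughout. It was -0.16 without sorted suffix 1, -0.051, -0.14, -0.36 and -0.37 without total suffix 1, 2, 3 or 4, -0.31 with each sample clustered alone, -0.18 without mitochondrial and ribosomal genes and -0.59 under TMM scaling. Without the AY036118-led or the Ccl4-led subcluster, both chosen after the data were seen, it was -0.18 and -0.26. Il34 in neuron-like cells, 34.2 CPM, was 38.5 CPM under the stricter cell filter (1000 genes, 5% mitochondrial), 29.1 CPM without total suffix 4 and 22.0 CPM under TMM scaling.

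The share of all genes called in microglia-like cells, 20.3%, was 8.66% with 10 CPM added and 8.64% with no UMI minimum, and that for border macrophage-like cells, 21.4%, was 10.3% and 8.46%. The median of all genes rose from 0.20 to 0.76 with each sample clustered alone. Of 494 values over 40 further results, 350 stayed within the counting interval or, for medians and shares of all genes, a fixed limit, and 144 moved beyond it. Reversal was counted only for ratios of called genes, and 0 of these reversed. The median of all genes changed sign, to -0.13, under TMM scaling. The causes of these changes were not tested. Depth limits levels that rest on few UMIs, and Il34 and Tgfb2 were too low in microglia-like cells to be tested.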
